A study of Sus scrofa with 15 samples.

Results

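CXCL8, PTGS2, TIFA and STAT3 are 4 genes of inflammatory signalling that were read here by name from a table of 25322 pig genes, and they were followed across cells sorted from adult pig knee joints. All 4 were measured and all 4 passed the filter on low values that left 9957 genes for testing. CXCL8 (ENSSSCG00000008953), PTGS2 (ENSSSCG00000015579), TIFA (ENSSSCG00000026139) and STAT3 (ENSSSCG00000017403) were matched by the symbol that the table itself pairs with each Ensembl identifier.

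CXCL8, also called interleukin-8, is a secreted chemokine that attracts neutrophils through the receptors CXCR1 and CXCR2, and chondrocytes and synovial cells are known to make it under stimulation by interleukin-1. PTGS2, the inducible cyclooxygenase COX-2, converts arachidonic acid into the precursor of prostaglandins and is known for its role in joint pain and inflammation. TIFA is an adaptor protein that binds TRAF6 after activation of the kinase ALPK1 and passes the signal on to NF-kappa B, the transcription factor family that drives CXCL8 and PTGS2 among many other genes. STAT3 is the transcription factor that carries signals of interleukin-6 family cytokines from the receptor subunit gp130 and the JAK kinases to the nucleus, and its activity is set mainly by phosphorylation, which RNA does not show.

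RNA was sequenced from 5 sorted populations with 3 libraries each. The 4 cartilage populations came from digested articular cartilage of pigs 2, 5 and 6 and were sorted on the integrin subunit ITGA4 and the BMP receptor BMPR1B, giving ITGA4+BMPR1B+ cells with both antigens, ITGA4+BMPR1B- cells with the integrin alone, ITGA4-BMPR1B+ cells with the receptor alone, and ITGA4-BMPR1B- cells with neither. The last population was CD146+ synovial cells of pigs 3, 4 and 5, titled MSC by the authors, who describe them as pericytes. They were gated against the leukocyte antigen CD45 and the endothelial antigen CD31. The animals were adult, and no treatment, genotype, strain, sex or exact age was given for them in the sources used here. Pig 5 was the sole animal that gave both kinds of tissue.

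Values below are scaled signal, the deposited signal after removal of structural and mitochondrial RNA and a correction for library composition, so that the messenger genes of a library sum to 1000000 on average over the libraries. The steps mattered, because messenger genes held between 2.03% and 22.1% of the signal of a library and structural RNA between 43.9% and 96.2%. Every library summed to the same deposited total, so the number of reads behind a value was not known, and a gene listed at the lowest value of the table was set to 0 and may have been below detection. The most common ratio to 1 reference library over sparsely detected genes pointed to a 12.5-fold range of depth among the 12 cartilage libraries. This depth includes structural RNA and is not the depth of messenger RNA. The estimate is rough, and in ITGA4+BMPR1B- cells of pig 5 it rested on 15 of 174 genes compared. The sorted identities were checked against marker lists. Summed chondrocyte markers lay between 15480 and 85507 in cartilage libraries and between 32.7 and 47.3 in CD146+ libraries. Summed endothelial markers lay between 14.1 and 145 in cartilage libraries and between 3372 and 5742 in CD146+ libraries, and PECAM1, which encodes the CD31 that the gate was set against, was at 0.797 to 13.8 in cartilage cells and at 343 to 621 in CD146+ cells. MCAM, which encodes CD146, was at 0.614 to 9.90 in cartilage cells and at 265 to 730 in CD146+ cells, and of 6 pericyte and smooth muscle markers tested, 4 were lower in cartilage than in CD146+ cells (MCAM, ACTA2, RGS5 and TAGLN) and 1 was higher. The exception was CSPG4, a pericyte marker that chondrocytes also express, at 314 to 1466 in cartilage cells and at 0.425 to 7.07 in CD146+ cells. As endothelial and pericyte markers were both present, the CD146+ libraries are named by their gate. In sorted bulk samples, fewer expressing cells and less RNA per cell cannot be told apart.

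The first question was how the 4 genes in articular chondrocytes compared with synovial CD146+ cells, the outgroup of the design. On the log2 scale CXCL8 (-5.66), TIFA (-1.58) and STAT3 (-0.65) were lower in the average of the cartilage populations than in CD146+ cells, with STAT3 turning to 0.34 on the deposited scale, and PTGS2 did not pass the test. Thus 3 of 4 genes were called, all lower, where 44.2% of all genes tested were called in either direction and 21.8% were called lower. The average took its 12 cartilage libraries as independent although they came from 3 pigs, so its errors and adjusted p may be too small.

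CXCL8 was at 51.1, 0 and 0 in ITGA4+BMPR1B+ cells of pigs 2, 5 and 6. It was at 422, 30.6 and 2.51 in ITGA4+BMPR1B- cells, at 5.74, 0 and 0 in ITGA4-BMPR1B+ cells, and at 21.2, 3.64 and 2.71 in ITGA4-BMPR1B- cells. In CD146+ cells of pigs 3, 4 and 5 it was at 141, 207 and 1224. The cartilage and synovial values overlapped through a single library, the ITGA4+BMPR1B- cells of pig 2, which exceeded the CD146+ cells of pigs 3 and 4. The 4 libraries listed at 0 were all BMPR1B+ cells, of pigs 5 and 6. The average difference was -5.66 on the log2 scale (SE 1.42, 95% interval -8.74 to -2.57, adjusted p = 0.00607), and it passed the test in each of the 15 fits that left 1 library out. With 4 libraries at 0 its size depended on the added constant, at -6.88 with 0.1 and at -4.55 with 5. Taken by population, the difference from CD146+ cells was -6.47 for ITGA4+BMPR1B+ cells (adjusted p = 0.0138), where 17.9% of all genes were called lower, -7.45 for ITGA4-BMPR1B+ cells (adjusted p = 0.00593), where 17.9% were, and -5.51 for ITGA4-BMPR1B- cells (adjusted p = 0.0322), where 15.6% were. For ITGA4+BMPR1B- cells, where 15.5% were called lower, it was -3.20 with a 95% interval of -7.10 to 0.70 (adjusted p = 0.196). CXCL8 was called there without the pig 2 library of that population (adjusted p = 0.0485) and with the pig as a term in the model (-6.00, adjusted p = 0.0111). The call in ITGA4-BMPR1B+ cells held whichever library was left out. The call in ITGA4+BMPR1B+ cells was lost in 3 of 15 such fits, without its own pig 5 or pig 6 library or the CD146+ library of pig 5 (adjusted p up to 0.0574), and that in ITGA4-BMPR1B- cells in 4 of 15, without its own pig 5 or pig 6 library or the CD146+ library of pig 4 or pig 5 (adjusted p up to 0.115). All comparisons with CD146+ cells use the same 3 synovial libraries.

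**Figure D1:**
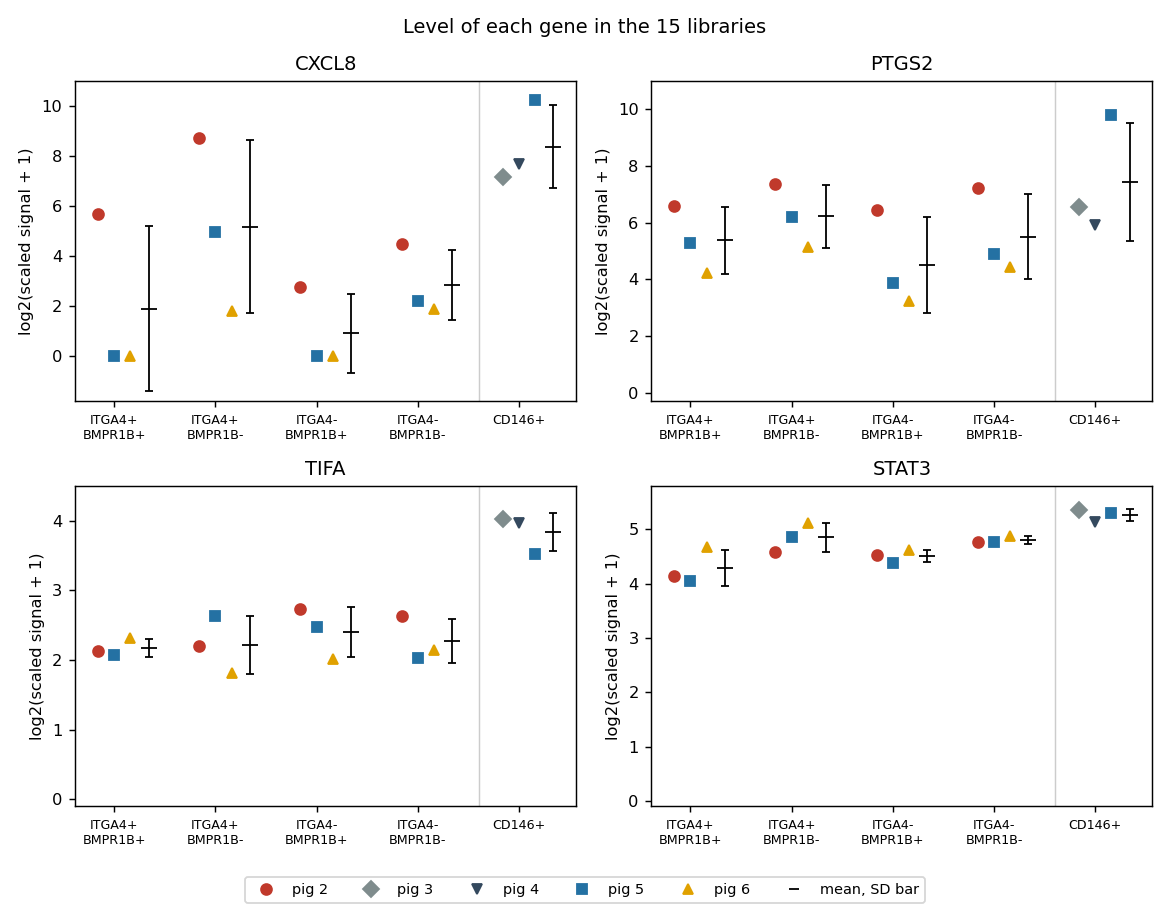
Scaled signal of CXCL8, PTGS2, TIFA and STAT3 in each of the 15 libraries, plotted as log2(scaled signal + 1) by sorted population, with the pig shown by symbol and colour and the mean ± SD of 3 libraries beside the points. CXCL8 in CD146+ cells lies above all cartilage libraries but 1, PTGS2 overlaps between the tissues, and TIFA and STAT3 in CD146+ cells lie above every cartilage library on this scale.

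PTGS2 was detected in all 15 libraries. It was at 96.2, 37.9 and 17.9 in ITGA4+BMPR1B+ cells of pigs 2, 5 and 6 and at 162, 72.9 and 34.1 in ITGA4+BMPR1B- cells. It was at 85.7, 13.6 and 8.37 in ITGA4-BMPR1B+ cells and at 149, 28.5 and 20.5 in ITGA4-BMPR1B- cells. CD146+ cells of pigs 3, 4 and 5 held 94.2, 59.4 and 901. All 4 cartilage libraries of pig 2 lay above the CD146+ cells of pig 4, as did the ITGA4+BMPR1B- cells of pig 5 at 72.9. Of the pig 2 libraries, 3 also lay above the CD146+ cells of pig 3. The CD146+ library of pig 5 stood above everything else. The average difference was -2.03 (SE 0.91, 95% interval -4.00 to -0.06, adjusted p = 0.0878). With the pig as a term in the model it was -4.76 (adjusted p = 5.10e-05, with 34% of genes called), and each of the 4 populations was called lower in that fit, by -5.65 to -3.93. These values rest on pig 5, the animal that links both tissues, and on its CD146+ library. Without the pig term no population was called, and the difference ran between -2.92 in ITGA4-BMPR1B+ cells (adjusted p = 0.0642) and -1.21 in ITGA4+BMPR1B- cells (adjusted p = 0.458). Within pig 5, PTGS2 was at 37.9, 72.9, 13.6 and 28.5 in the cartilage populations, against 901 in CD146+ cells.

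The CD146+ library of pig 5 differed from the other CD146+ libraries in some induced genes and not in others. CXCL8 was 5.91 times and PTGS2 was 9.56 times as high there as in the next CD146+ library, and 0.753% and 0.392% of all genes tested stood out at least as far. Other genes were looked up there after their values were seen. The cytokine IL6 was at 36.8, 15.4 and 417 in CD146+ cells of pigs 3, 4 and 5, the chemokine CCL20 was 19.0 times, the chemokine AMCF-II 18.0 times and the cytokine LIF 31.6 times as high in pig 5 as in the next library. MMP3 (5.54 times), MMP1 (4.99 times) and PTX3 (4.33 times) were also highest in pig 5. Further genes that cytokines induce were not highest in pig 5, with SELE at 0.242 times, NOS2 at 0.386 times, SOCS3 at 0.494 times, CSF2 at 0.555 times and CSF3 at 0.714 times the higher of the other libraries, and STAT3 was at 0.971 times. Without this library the cartilage difference was -4.71 for CXCL8 (adjusted p = 0.0463), -0.84 for PTGS2 (adjusted p = 0.501), -1.73 for TIFA (adjusted p = 0.000237) and -0.62 for STAT3 (adjusted p = 0.0204), with 36.8% of genes called.

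The row labelled TIFA was low and even, unlike a second row of that name described further below. The labelled row was at 3.37, 3.22 and 4.00 in ITGA4+BMPR1B+ cells of pigs 2, 5 and 6. In ITGA4+BMPR1B- cells it was at 3.62, 5.21 and 2.50. It was at 5.63, 4.56 and 3.05 in ITGA4-BMPR1B+ cells and at 5.18, 3.08 and 3.44 in ITGA4-BMPR1B- cells. CD146+ cells of pigs 3, 4 and 5 held 15.3, 14.7 and 10.5, and on this scale no cartilage library came near the lowest of them. On the deposited signal the groups overlapped, at 0.0615 to 0.724 in cartilage cells and at 0.317 to 0.442 in CD146+ cells, so the separation of TIFA rests on the scaling. The difference was -1.58 (SE 0.22, 95% interval -2.05 to -1.10, adjusted p = 7.65e-05), and each population was lower than CD146+ cells by itself, between -1.67 in ITGA4+BMPR1B+ cells (adjusted p = 0.000472) and -1.44 in ITGA4-BMPR1B+ cells (adjusted p = 0.00129). With the pig in the model the value in ITGA4-BMPR1B+ cells was -1.08 (adjusted p = 0.0645), and the other 3 calls held. TIFA did not pass the filter on the deposited scale and was not tested there. Its values are low, and the added constant of 1 shrinks the fold.

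STAT3 had the narrowest range of the 4 genes. It was at 16.7, 15.6 and 24.6 in ITGA4+BMPR1B+ cells of pigs 2, 5 and 6 and at 23.0, 28.02 and 33.8 in ITGA4+BMPR1B- cells. It was at 22.2, 19.9 and 23.5 in ITGA4-BMPR1B+ cells and at 26.2, 26.3 and 28.5 in ITGA4-BMPR1B- cells. CD146+ cells held 39.8, 34.04 and 38.6, all above the highest cartilage library, although that library, ITGA4+BMPR1B- cells of pig 6, came just below the lowest of them. The average difference was -0.65 (SE 0.15, 95% interval -0.98 to -0.32, adjusted p = 0.00398). By population it passed the test in ITGA4+BMPR1B+ cells (-0.97, adjusted p = 0.00178) and ITGA4-BMPR1B+ cells (-0.75, adjusted p = 0.00834), and did not in ITGA4+BMPR1B- cells (-0.41, adjusted p = 0.126) or ITGA4-BMPR1B- cells (-0.46, adjusted p = 0.0887). Of the 3 members tested on both scales, STAT3 was the one whose direction against CD146+ cells turned. On the deposited signal its difference was 0.34 (adjusted p = 0.590, with 6.77% of genes called), where the median of all genes was itself shifted to 0.59, which leaves -0.25 relative to that median.

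**Figure D2:**
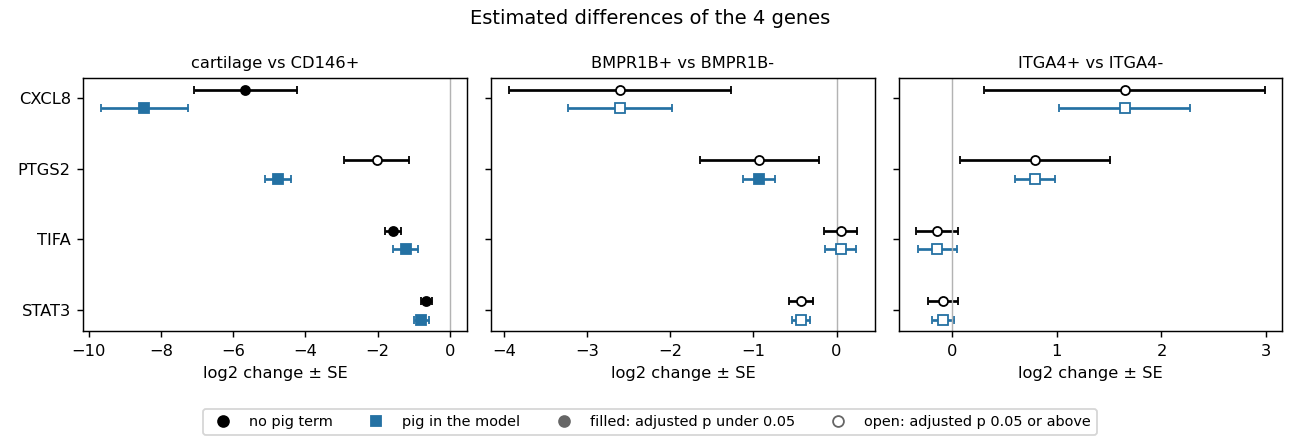
Estimated log2 change ± SE of the 4 genes for the cartilage average over CD146+ cells, BMPR1B+ over BMPR1B- cells and ITGA4+ over ITGA4- cells, without a pig term (circles) and with the pig in the model (squares), filled where the adjusted p was under 0.05. All 4 estimates against CD146+ cells are negative on the scaled signal (STAT3 is at 0.34 on the deposited signal), and among cartilage cells the pig term shortens the error bars while leaving the estimates in place.

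The second question was whether the sorted cartilage populations differed among themselves. Ordered by mean log2 level, CXCL8, PTGS2 and STAT3 were all highest in ITGA4+BMPR1B- cells and next in ITGA4-BMPR1B- cells, with the BMPR1B+ populations below. For CXCL8 the means of log2(scaled signal + 1), with SD and n = 3, were 1.90 ± 3.29 for ITGA4+BMPR1B+ cells, 5.17 ± 3.46 for ITGA4+BMPR1B- cells, 0.92 ± 1.59 for ITGA4-BMPR1B+ cells and 2.86 ± 1.41 for ITGA4-BMPR1B- cells. For PTGS2 they were 5.37 ± 1.19, 6.23 ± 1.11, 4.51 ± 1.70 and 5.51 ± 1.505 in the same order. For STAT3 they were 4.29 ± 0.34, 4.85 ± 0.27, 4.51 ± 0.12 and 4.81 ± 0.07, and for TIFA 2.18 ± 0.13, 2.22 ± 0.41, 2.41 ± 0.36 and 2.27 ± 0.32. The labelled TIFA row had no such order, while the second TIFA row, described further below, had the cartilage order of CXCL8 and PTGS2. Over the 6 pairs of cartilage populations limma called 0 of 4 genes without the pig in the model, neighbours in these orders included, where it called 0%, 0%, 0.0402%, 0.0803%, 0.01% and 0.01% of all genes. At an unadjusted p under 0.05 stood STAT3 in ITGA4+BMPR1B+ cells, lower than in ITGA4+BMPR1B- cells (-0.56) and lower than in ITGA4-BMPR1B- cells (-0.51). The latter turned to 0.09 on the deposited scale, where the median of all genes was 0.35. CXCL8 also had an unadjusted p under 0.05 in ITGA4+BMPR1B- against ITGA4-BMPR1B+ cells (4.25). On the deposited scale limma called this last difference (2.01, adjusted p = 0.0181, where 0.0284% of genes were called), and with the pig added on that scale it was not called (adjusted p = 0.0658).

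Comparing BMPR1B+ with BMPR1B- cells, limma called 0 of 4 genes, where 0.211% of all genes tested were called, and STAT3 alone had an unadjusted p under 0.05 (0.0129). The differences were -2.61 for CXCL8 (SE 1.34, 95% interval -5.58 to 0.37, adjusted p = 0.567), -0.93 for PTGS2 (SE 0.72, 95% interval -2.52 to 0.67, adjusted p = 0.730) and -0.43 for STAT3 (SE 0.14, 95% interval -0.74 to -0.11, adjusted p = 0.322). The labelled TIFA row differed by 0.05 (SE 0.20, adjusted p = 0.968), and the second TIFA row is given further below. These fits set the populations against a spread that includes the differences between pigs, and the same 3 pigs gave all 4 populations.

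Within a pig the direction was uniform for CXCL8, PTGS2 and STAT3 on this scale. Among ITGA4+ cells, BMPR1B+ cells held less CXCL8 than BMPR1B- cells in 3 of 3 pigs, and among ITGA4- cells likewise in 3 of 3. In pig 2 alone both values of a pair were above 0, with differences of -3.02 among ITGA4+ and -1.72 among ITGA4- cells on the log2 scale. In pigs 5 and 6 every BMPR1B+ value was 0, and 3 of those 4 libraries had the lowest relative depths of all, 0.358 to 0.559 times that of the ITGA4-BMPR1B- cells of pig 6. This depth includes structural RNA. Messenger genes held 14.8% to 22.1% of the signal in the 4 libraries at 0. They held 4.03% in ITGA4+BMPR1B+ cells of pig 2, which had a relative depth of 1.58 and CXCL8 at 51.1. The depth of messenger RNA was not compared. Of the 4 BMPR1B- partners of the libraries at 0, 3 held 2.51 to 3.64. Corrected for relative depth, those 3 and the ITGA4-BMPR1B+ cells of pig 2 were the 4 lowest CXCL8 values above 0. They lay within 1.41-fold of each other, and the next value was 3.67 times the highest of them, so they may sit at the floor of detection. The 3 of 3 counts of CXCL8 rest in part on such values. CXCL8 was not shown to be absent from those BMPR1B+ cells, and the part of depth in the direction was not tested. PTGS2 was lower in 3 of 3 pigs on the ITGA4+ side (-0.93 to -0.75) and in 3 of 3 on the ITGA4- side (-1.20 to -0.79). STAT3 was lower in 3 of 3 pigs on each side (-0.80 to -0.44 and -0.38 to -0.23), though on the deposited scale in 2 of 3 pigs among ITGA4- cells. TIFA was lower in 2 pigs and higher in 1 among ITGA4+ cells, and the reverse among ITGA4- cells. With the pig in the model the estimates stayed and their errors fell, to 0.63 for CXCL8 (adjusted p = 0.0707), 0.19 for PTGS2 (adjusted p = 0.0486) and 0.10 for STAT3 (adjusted p = 0.0745), where 2.65% of all genes were called. The PTGS2 call was slight. It was kept in 2 of 12 fits that left out a library, with adjusted p between 0.0306 and 0.146. Chondrocyte markers moved with this comparison, their sum being 25609 to 85507 in BMPR1B+ and 15480 to 35407 in BMPR1B- cells, and their part in the differences of CXCL8, PTGS2 and STAT3 was not tested.

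**Figure D3:**
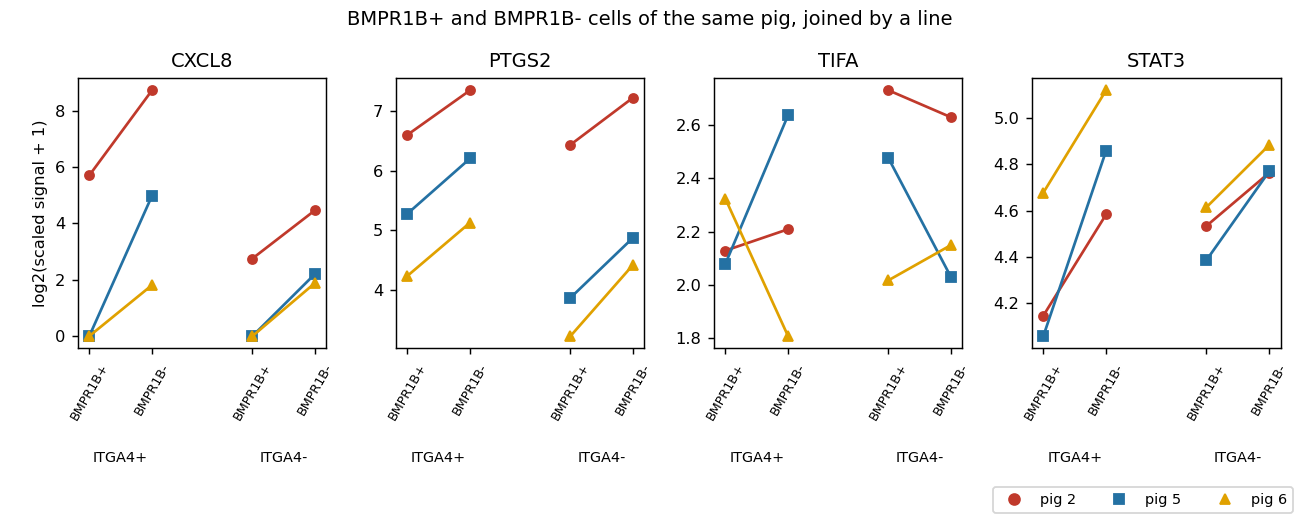
log2(scaled signal + 1) of the 4 genes in BMPR1B+ and BMPR1B- cells of the same pig, joined by a line, among ITGA4+ cells and among ITGA4- cells (3 pigs, by symbol and colour; each panel has its own axis). All 6 lines of CXCL8, PTGS2 and STAT3 join a lower BMPR1B+ value to a higher BMPR1B- value, and those of TIFA run both ways.

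Comparing ITGA4+ with ITGA4- cells, limma called 0 of 4 genes, where 0.01% of all genes tested were called with or without the pig in the model, and none of the 4 had an unadjusted p under 0.05 without it. The differences were 1.65 for CXCL8 (SE 1.34, adjusted p = 0.917), 0.79 for PTGS2 (SE 0.72, adjusted p = 0.929), -0.14 for TIFA (SE 0.20, adjusted p = 0.946) and -0.08 for STAT3 (SE 0.14, adjusted p = 0.955). STAT3 turned to 0.32 on the deposited scale, where the median of all genes was also 0.32, which leaves 0.002 relative to that median. PTGS2 was higher in ITGA4+ cells in 3 of 3 pigs on each BMPR1B side, by 0.12 to 1.33 among BMPR1B- cells and by 0.17 to 1.41 among BMPR1B+ cells, and its adjusted p with the pig in the model was 0.204. The interaction of both markers was -1.33 for CXCL8, 0.14 for PTGS2, -0.18 for TIFA and -0.27 for STAT3, each with an adjusted p of 1, where 0.01% of genes were called. The pair farthest apart was ITGA4+BMPR1B- against ITGA4-BMPR1B+ cells. There PTGS2 differed by 1.72 and CXCL8 by 4.25, with adjusted p of 0.659 and 0.521 without the pig and of 0.0318 and 0.0562 with it, beside the call of CXCL8 on the deposited scale given above. That test called 0.0803% of genes without the pig and 1.84% with it.

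The libraries behind these values were uneven in a way that followed the animal. On the scaled signal PTGS2 was higher in every cartilage library of pig 2 than in any of pigs 5 and 6. It was at 85.7 to 162 (median 123) against 8.37 to 72.9 (median 24.5), a difference of 2.25 in mean log2. For CXCL8 the range was 5.74 to 422 in pig 2 (median 36.1) and 0 to 30.6 in pigs 5 and 6 (median 1.25). The differences were 0.23 for TIFA and -0.16 for STAT3. On the deposited signal PTGS2 overlapped, at 1.27 to 3.69 in pig 2 and at 0.736 to 10.1 in pigs 5 and 6, so its separation rests on the scaling. Messenger genes held 2.03% to 4.17% of the signal in cartilage libraries of pig 2 and 11.8% to 22.1% in those of pigs 5 and 6. On the scaled signal, 4.94% of all genes tested had every cartilage library of pig 2 above every other cartilage library. Which feature of the animal or its preparation went with them was not tested.

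The highest CXCL8 value in cartilage, 422 in ITGA4+BMPR1B- cells of pig 2, stood in the cartilage library with the highest leukocyte and endothelial markers. Its neutrophil markers, summed over 4 rows, were 214, against 0 to 11.4 in the other 11 cartilage libraries, with S100A8 at 81.3 and S100A12 at 83.4. Its macrophage markers, summed over 10 rows, were 621, against 96.1 to 277 in the others, with C1QC at 99.7, CD68 at 106 and PTPRC, the CD45 gene, at 7.93. Without this library the CXCL8 difference was -6.10 for the cartilage average over CD146+ cells (adjusted p = 0.00192), -1.72 for BMPR1B+ over BMPR1B- cells (adjusted p = 0.632) and 0.76 for ITGA4+ over ITGA4- cells (adjusted p = 0.890). In the CD146+ cells of pigs 3, 4 and 5, where CXCL8 was high, the neutrophil sums were 74.7, 8.11 and 0 and the macrophage sums were 49.3, 70.4 and 85.8. Endothelial markers, summed over 9 rows, were 145 in the ITGA4+BMPR1B- cells of pig 2. The next cartilage sum was 77.1, in ITGA4+BMPR1B+ cells of pig 2, where CXCL8 was at 51.1. The part of leukocytes or endothelial cells in the CXCL8 values was not tested.

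A second row of the table, ENSSSCG00000009129, carried no symbol there but is called TIFA in a list of Ensembl gene names. It was looked at after its values were seen and is kept apart from the 4 genes. It was at 0.00620, 0 and 6.47 in ITGA4+BMPR1B+ cells of pigs 2, 5 and 6 and at 16.9, 30.8 and 22.1 in ITGA4+BMPR1B- cells. It was at 0.151, 0.0246 and 0 in ITGA4-BMPR1B+ cells and at 5.22, 21.4 and 12.9 in ITGA4-BMPR1B- cells. BMPR1B+ cells held less than BMPR1B- cells in every pig on each side, and the groups overlapped through 1 BMPR1B+ library of pig 6. The difference was -3.57 (SE 0.51, adjusted p = 0.0472, and 0.0192 with the pig in the model), and the call was kept in 3 of 12 fits that left out a library without the pig term. In CD146+ cells it was at 166, 58.9 and 0.00333, so that the row nearly vanished in pig 5, and the difference of the cartilage average from CD146+ cells was -2.12 with all libraries (adjusted p = 0.151) and -4.33 without that one (adjusted p = 0.000415). With the pig in the model it was 2.37 (adjusted p = 0.0825), in a fit that joins the tissues through pig 5 alone. Whether the rows share reads could not be seen from the table, and the TIFA values above are those of the row that carries the symbol.

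**Figure D4:**
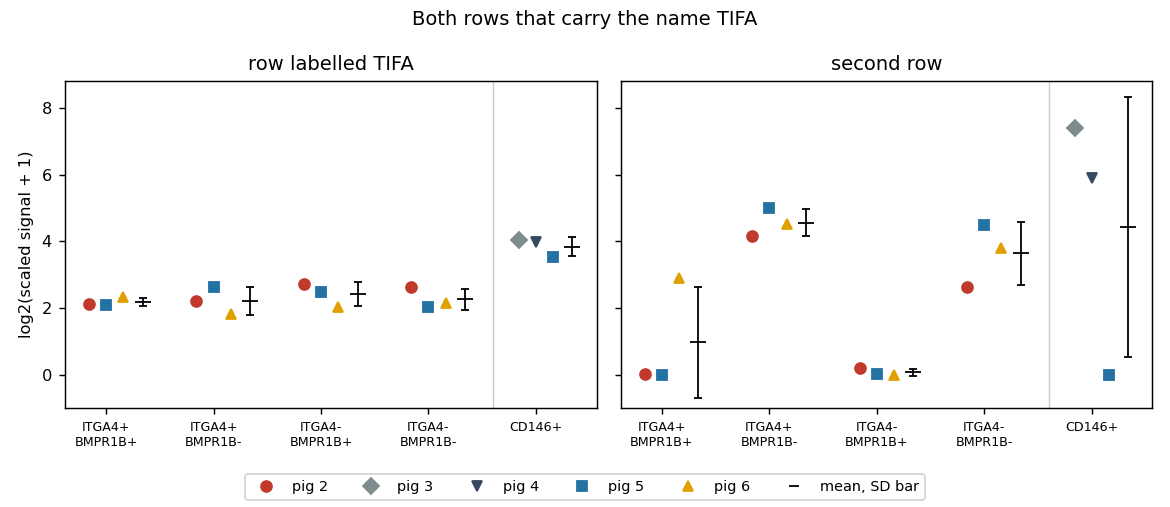
log2(scaled signal + 1) by library of the row that the table labels TIFA (left) and of the second row that a gene name list calls TIFA (right), by sorted population, with the mean ± SD of 3 libraries beside the points. The labelled row is even among cartilage cells and higher in CD146+ cells, while the second row is lower in BMPR1B+ cells and near 0 in the CD146+ library of pig 5.

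The neighbours of the 4 genes in their pathways were followed through 6 lists, which leave the 4 genes out, and are given as counts beside the 22.4% of all genes called higher and 21.8% called lower in cartilage cells against CD146+ cells. Among chemokines and their receptors, 1 of 16 was higher and 7 were lower, with a median of -1.93 on the log2 scale against -0.02 over all genes. CXCR4, the receptor of CXCL12, fell to 0.662 to 19.98 in cartilage cells, against 1695 to 3272 in CD146+ cells (-8.75, adjusted p = 2.04e-08), and the decoy receptor ACKR1 differed by -6.83 and the lymphoid chemokine CCL21 by -5.41. The membrane-bound chemokine CXCL16 was higher (1.35, adjusted p = 0.00355), a call lost with the pig in the model (adjusted p = 0.391). AMCF-II, a porcine chemokine that attracts neutrophils as CXCL8 does, was lower (-4.47, adjusted p = 0.0194), and its call was lost without the CD146+ library of pig 5 (adjusted p = 0.154).

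Of 7 prostanoid genes tested beside PTGS2, 3 were higher in cartilage cells and 0 were lower (median 0.93). With the pig in the model the counts were the same and the median was -0.01. PTGS1, the constitutive cyclooxygenase COX-1, was at 6.67 to 147 in cartilage cells, against 0.441 to 2.12 in CD146+ cells (4.41, adjusted p = 0.000199). PTGIS, the prostacyclin synthase, was at 6.53 to 51.7, against 1.64 to 3.94 (2.58, adjusted p = 0.00662), and PTGFRN, a membrane protein that binds the prostaglandin F receptor, differed by 2.15. None of these ranges overlapped. Of 21 rows on the list, 10 never exceeded 5 in any library, among them PTGER1, PTGER2 and PTGER3, which encode receptors of prostaglandin E2.

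Of 31 genes around TIFA, TRAF6 and NF-kappa B, 2 were higher in cartilage cells and 6 were lower (median -0.09). TRAF6, the ubiquitin ligase that TIFA binds, was lower with TIFA, at 4.56 to 7.23 in cartilage cells against 9.001 to 26.3 in CD146+ cells (-1.29, adjusted p = 0.000768), though with the pig in the model it was not called (adjusted p = 0.110). Some genes of NF-kappa B inhibitors were lower and some did not pass the test: NFKBIA was at 77.0 to 295, against 636 to 902 (-2.33, adjusted p = 0.000538), and TNFAIP3 was at 3.33 to 24.8, against 41.1 to 87.6 (-2.42, adjusted p = 0.00126). TNIP1 was lower (-0.81, adjusted p = 0.000276), while NFKBIB (-0.68, adjusted p = 0.0798), CYLD (-0.33, adjusted p = 0.168) and NFKBIE (-0.06, adjusted p = 0.912) did not pass. The endotoxin receptor TLR4 was lower (-2.96, adjusted p = 0.00155), while the lipoprotein receptor TLR2 was higher (2.34, adjusted p = 2.26e-05). ALPK1, the kinase upstream of TIFA, was higher in cartilage cells, at 1.58 to 7.001 against 0.853 to 1.98 (1.09, adjusted p = 0.0199), and lost its call without the CD146+ library of pig 4 or of pig 5 and with the pig in the model (adjusted p = 0.0993).

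Of 30 genes of interleukin-6 family signalling, 11 were higher in cartilage cells and 5 were lower (median 0.15). The receptor genes OSMR, LIFR and IL6ST were among those that were higher. OSMR, the oncostatin M receptor, was at 55.4 to 262 in cartilage cells against 20.3 to 34.4 in CD146+ cells (2.12, adjusted p = 0.000889). LIFR was at 36.3 to 81.5 against 18.5 to 26.8 (1.22). IL6ST, which encodes gp130, was at 47.5 to 79.0 against 35.0 to 41.4 (0.77, adjusted p = 0.00107, and 0.0771 with the pig in the model). The receptor genes IL6R and IL11RA were also tested and are not given here. Of the kinases that phosphorylate STAT3, JAK2 was higher (1.42, adjusted p = 1.05e-05) and JAK1 was lower (-0.83, adjusted p = 0.00312). The ligand IL6 was lower, at 1.11 to 20.5 against 15.4 to 417 (-3.62, adjusted p = 0.00514). SOCS3, the feedback inhibitor that STAT3 induces, was at 94.9 to 240 in cartilage cells and at 115 to 234 in CD146+ cells, with full overlap.

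**Figure D5:**
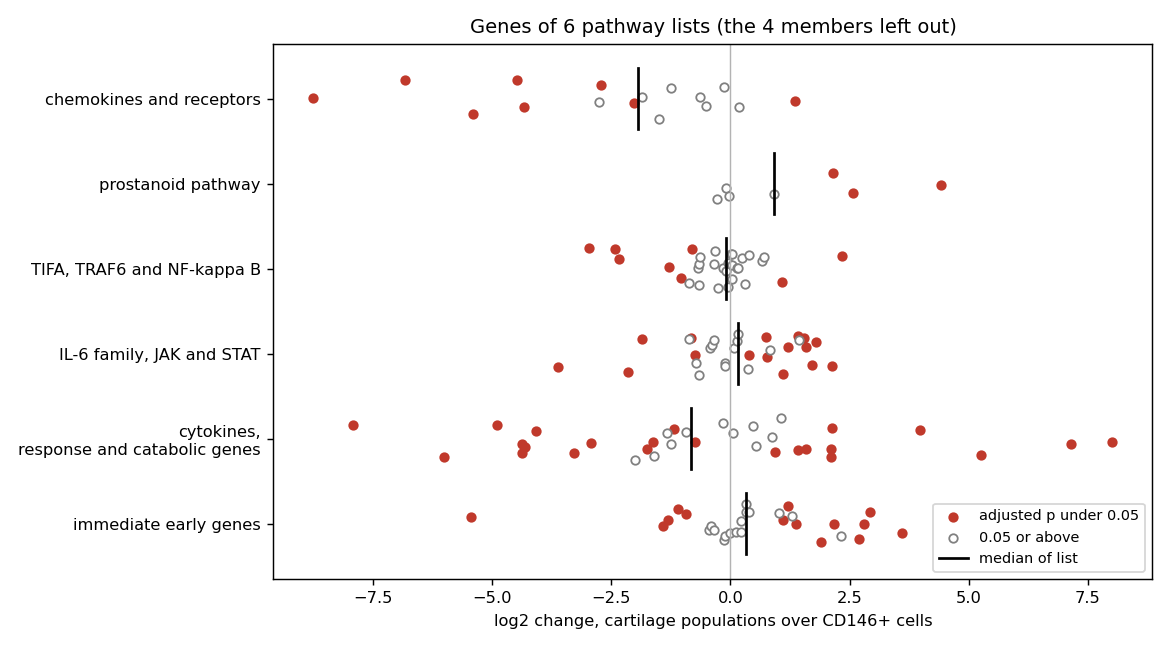
log2 change of the cartilage average over CD146+ cells for every tested gene of 6 pathway lists, with CXCL8, PTGS2, TIFA and STAT3 left out, filled where the adjusted p was under 0.05, and with the median of each list as a vertical bar. The chemokine list lies mostly to the left, with a median of -1.93, and the 3 called prostanoid genes all lie to the right.

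Genes that respond to cytokines or degrade matrix moved in both directions, with 10 of 34 higher in cartilage cells and 13 lower (median -0.83). The protease inhibitor SERPINA1 (8.02), the decoy receptor TNFRSF11B (7.15), the iron-binding protein LCN2 (5.26) and the collagenase MMP13 (3.99) were higher. The cytokine CSF2, at 0 to 1.499 in cartilage cells against 326 to 587 in CD146+ cells (-7.93, adjusted p = 1.25e-08), the aggrecanase ADAMTS4 (-6.01) and the adhesion molecule VCAM1 (-3.29) were lower. Immediate early genes, which are induced within minutes by many stimuli, tissue handling included, were higher for 9 of 29 and lower for 5 (median 0.33). FOS (2.94), EGR1 (3.59) and KLF4 (2.79) were higher, RGS2 (-5.45) was lower, and the summed level of the list was 18440 to 50297 in cartilage cells and 9493 to 11278 in CD146+ cells. PTGS2 and CXCL8 are known to respond to the same stimuli, and the part of handling in their levels was not tested. Without the CD146+ library of pig 5 the counts of higher and lower genes became 1 and 6 for chemokines, 3 and 0 for prostanoid genes, 1 and 6 for the TIFA list, 9 and 6 for the interleukin-6 list, 12 and 11 for the cytokine list and 7 and 4 for immediate early genes.

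Between BMPR1B+ and BMPR1B- cells, the sole gene of the 6 lists that was called was VCAM1 (-2.28, adjusted p = 0.0497), and it lost its call whichever of the 12 libraries was left out (adjusted p 0.0589 to 0.162). With the pig in the model, 1 chemokine gene, 1 gene of the TIFA list and 2 of the interleukin-6 list were lower in BMPR1B+ cells and none of these lists held a higher one, out of 16, 31 and 30 genes. Of 34 genes of the cytokine list 4 were higher and 6 lower, and of 29 immediate early genes 1 was higher and 3 lower, where 2.65% of all genes were called in either direction. None of 7 prostanoid genes was called. The gene called from the chemokine list was the scavenging receptor ACKR2 (-1.59), and that from the TIFA list was TLR4 (-1.83, adjusted p = 0.0192). From the interleukin-6 list they were the STAT3 target SOCS3 (-0.58, adjusted p = 0.0266) and OSMR (-0.66, adjusted p = 0.0239). Between ITGA4+ and ITGA4- cells none of the lists held a called gene, with or without the pig in the model.

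The genes whose level followed each member most closely over the 12 cartilage libraries were named from 3978 genes with a mean scaled signal of at least 20, as a description, since these libraries share 3 pigs and their depth. For PTGS2 they were EAF1 (Pearson r 0.951), the serine protease inhibitor SERPINE2 (0.940), the collagenase MMP1 (0.940), the plasminogen activator PLAU (0.939) and C15orf48 (0.933). For CXCL8 they included the junction protein F11R (0.915), the actin crosslinker ACTN1 (0.895) and again PLAU (0.881). For STAT3 they were the cell cycle inhibitor CDKN1B (0.957), the matrix protein TNC (0.955), GNPDA1 (0.954), ZBTB38 (0.952) and CDON (0.934). For TIFA the likeness was weaker, with ITPR2 (0.816), PDPN (0.804) and PFDN5 (0.761) in front. CXCL8 and PTGS2 had an r of 0.856 with each other, and of 0.664 once the mean of each pig was taken out. PTGS2 and STAT3 had an r of -0.08, and of 0.55 once the pig means were taken out.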

How the data were processed

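Pig RNA was prepared with a low-input kit (NuGEN Ovation SoLo) and sequenced as paired ends. The authors aligned reads to the Ensembl pig reference with STAR and quantified them with the expectation maximisation method of Partek. The deposited values are signal per gene, each library summing to 629194 to 629195 with 0.0001 in place of 0; tool versions and the normalisation formula were not given in the sources used here. No counts could be recovered, so the depth is unknown.

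Structural (1115) and mitochondrial (37) rows were removed, leaving 24170 genes. Libraries were scaled by the median ratio over 11302 genes to a mean total of 1000000. limma 3.58.1 in R 4.3.3 was fitted with a trended prior to log2(scaled signal + 1) for the 9957 genes above 5 in at least 3 libraries, and p-values were adjusted by Benjamini-Hochberg over all of them (threshold 0.05). Fold changes are on this scale and understate those of low genes. Comparisons with CD146+ cells used 15 libraries and those among cartilage cells used 12. Replicates of a population were different animals, but the 4 cartilage populations came from the same 3 pigs. Without the pig term, the cartilage average took its 12 libraries as independent, so its SE, interval and adjusted p may be too small. The fits were also run on simulated data, with pig effects in the BMPR1B comparison with the block only. The pass condition there concerned the size of the estimates. It did not check the p-values of fits without the pig term on libraries that share pigs. The pig number pairs cartilage libraries of the same animal: 12 of 12 libraries deviated most like another of their pig (same-pig r 0.130 to 0.412, median 0.312; different pigs, median -0.150), and the fit with the pig as a block was an alternative. Other alternatives were the deposited scale, total scaling, pseudocounts of 0.1 and 5, no filter and leaving libraries out. The members, gene lists and tests were chosen with earlier results of these data known. Genes named beside the 4 members were list genes past the threshold, up to 5 per direction and list by smallest p, list genes that state a role, and the 5 genes most correlated with each member. Exceptions, named after their values were seen, were the second TIFA row and genes that set single libraries apart. Pandas 2.3.3 and NumPy 2.4.6 were used for summaries.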

Additional observations from a re-analysis of the deposited data

How the results depend on the processing

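With the pig as a replicate block, pairing libraries of the same animal, PTGS2 was called in cartilage against CD146+ cells (-4.76) and in BMPR1B+ against BMPR1B- cells (-0.93, adjusted p = 0.0486), and 264 genes in place of 21 were called between BMPR1B sides; no other call of the 4 genes changed in the averaged comparisons. On the deposited scale (7049 genes tested) limma called 477 genes between cartilage and CD146+ cells, 0 between BMPR1B sides (172 at an unadjusted p under 0.05), 10 between ITGA4 sides and 4 for the interaction, and STAT3 turned to 0.34 against CD146+ cells and to 0.32 for ITGA4+ over ITGA4- cells. With the block added on that scale, PTGS2 was -2.60 (adjusted p = 0.000205) and STAT3 0.62 (adjusted p = 0.0133) against CD146+ cells. CXCL8 1.04, PTGS2 1.02 and STAT3 0.32 were called for ITGA4, where 3507 of the 7049 genes tested were called. On the deposited scale without the block, the median of all genes for ITGA4 was itself shifted to 0.32, which leaves 0.002 for STAT3. With the block, 0 genes were called for BMPR1B and 0 for the interaction. Scaling to the messenger total called PTGS2 against CD146+ cells (-2.46, adjusted p = 0.0354), left 1 gene for BMPR1B and turned TIFA there to -0.017. A pseudocount of 5 left 2 genes for BMPR1B, and of 0.1 gave 2 for ITGA4 and 0 for the interaction. Without the filter 6, 2 and 2 genes were called for BMPR1B, ITGA4 and the interaction. The cause of these shifts was not tested.

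Leaving out 1 library, or all cartilage libraries of 1 pig (chosen after seeing the data), gave 3574 to 4498 called genes against CD146+ cells, 0 to 40 for BMPR1B, 0 to 6 for ITGA4 and 0 to 3 for the interaction. The differences for cartilage over CD146+ cells, BMPR1B and ITGA4 ranged over -7.01 to -4.71, -3.56 to -1.72 and 0.67 to 2.49 for CXCL8, over -2.79 to -0.84, -1.41 to -0.50 and 0.47 to 1.27 for PTGS2, over -1.73 to -1.48, -0.05 to 0.15 and -0.26 to 0.04 for TIFA, and over -0.75 to -0.59, -0.52 to -0.35 and -0.20 to 0.01 for STAT3. PTGS2 was called against CD146+ cells without ITGA4-BMPR1B+ cells of pig 2 (-2.27, adjusted p = 0.0463) and without all cartilage of pig 2 (-2.78, adjusted p = 0.0164). TIFA turned for BMPR1B without ITGA4+BMPR1B- cells of pig 6 (-0.053), ITGA4-BMPR1B+ cells of pig 2 (-0.03), ITGA4-BMPR1B- cells of pig 5 (-0.01) or all cartilage of pig 6 (-0.02), and TIFA (0.044) and STAT3 (0.015) turned for ITGA4 without all cartilage of pig 2. With 3 libraries a population and unknown depth, CXCL8 values of 0 do not show absence.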
